A study of Homo sapiens with 24 samples.

Results

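The hypoxia and glycolysis set holds 40 listed genes, 21 known targets of the hypoxia response and 19 genes of core glycolysis. They were listed by gene name, and 37 of the 40 were measured among the 11940 genes of the arrays. These comprised 19 hypoxia targets and 18 glycolysis genes. CA9, ANGPTL4 and SLC16A3 had no probe set named for them and were not analysed here. Each gene was read from 1 probe set, the one of highest mean over 24 arrays.

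Cells short of oxygen stabilise the alpha subunits of the hypoxia-inducible factors (HIF), which pair with ARNT and bind DNA at hypoxia response elements. In normal oxygen, prolyl hydroxylases such as EGLN1 mark HIF alpha for the VHL ubiquitin ligase and its destruction. HIF targets carry glucose into the cell, speed its conversion to lactate, promote vessel growth and remodel collagen. Many tumour cells run glycolysis at a high rate in oxygen as well, and growth factor signalling can raise HIF-1 without hypoxia.

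The arrays were Affymetrix high-throughput human expression arrays of total RNA from A2780 cells, an established human ovarian cancer line, and no condition changed the oxygen. Of the 24 arrays, 12 were of cells transfected with Rab25 and 12 of cells transfected with pcDNA, the empty vector. Rab25 is a small GTPase of endosome recycling. Each line had 2 arrays with EGF at 10 ng/ml, 2 with IGF at 10 ng/ml, 2 with TGF beta at 5 ng/ml, 2 with fetal bovine serum (FBS) at 5% and 4 starved of serum, which made 10 groups. Serum was withdrawn for 8 h before any addition. Each treated group had 1 array in experiment 2 and 1 in experiment 1, and each starved group had 2 in each. By the treatment protocol the exposure was 24 h for experiment 2, but only 8 h for experiment 1. By the source names it was 24 h for every treated sample. The experiment and the exposure time therefore cannot be told apart, and how long the starved cells were kept beside the treated ones is not given in the sources used here. Each line is 1 transfected line, and the labels do not say whether it is a clone or a pool. The series' design text calls the samples independent, but nothing names separate cultures, so p values measure the spread between these samples.

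Values are log2 signals, so a difference of 1 is a 2-fold change, and a level is not comparable between probe sets. RAB25 itself lay between 8.18 and 9.08 on the 12 Rab25 arrays and between 4.90 and 5.60 on the 12 pcDNA arrays, as labelled. Array medians lay between 7.02 and 7.35. Over genes, the difference between 2 arrays of 1 group had an SD of 0.144 to 0.173 within an experiment and of 0.308 to 0.432 across the experiments. The epithelial markers KRT8 and KRT18 and the lineage factor PAX8 were high (medians of 12.73, 14.03 and 11.68 over the 22 arrays other than Rab25 FBS), whereas the ovarian and epithelial markers EPCAM, CDH1 and MUC16 were low (5.14, 5.53 and 4.91). Both Rab25 FBS arrays stood apart. Their 7 fibroblast and stroma markers averaged 10.96 (array 1) and 9.25 (array 2), against 6.62 to 7.23 on the other 22 arrays, and 5 of the 7 were above all other arrays on both. Their 7 measured breast epithelium markers averaged 6.52 and 6.35, against at most 5.65 elsewhere, and 2 of these 7 were above all other arrays on both. The 7 macrophage markers averaged 7.25 and 7.11, against at most 6.74, with 4 above all other arrays on both. The 7 adipocyte markers averaged 5.72 and 6.65, against at most 5.64, with 2 above all other arrays on both. KRT19 was at 9.95 and 5.54 on these arrays, against at most 5.41 elsewhere, and EPCAM at 8.49 and 5.12, against at most 5.29. In RNA of a whole culture, more cells of another type and more RNA of these genes per cell cannot be told apart. Members whose call changed without these arrays are named beside the line and experiment results, and counts for the FBS response are given without them.

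Promoter windows show where the letters that HIF can bind occur in these genes. RefSeq promoters (GRCh38.p14) were held for 34 of the 37 members, with 61 transcription starts, of which several can belong to 1 gene and overlap. VEGFA, SLC2A3 and NDRG1 had none. The core ACGTG was searched on both strands (CACGT on the printed strand is its reverse complement) in the 250 bases before each start, and CACGTG counts on both strands. It was in 12 of 22 windows of hypoxia targets (54.5%), in 15 of 39 windows of glycolysis genes (38.5%) and in 6501 of all 35116 windows (18.5%). The other core, GCGTG, was in 12 of 22 (54.5%), 12 of 39 (30.8%) and 32.2% of all windows. The median GC content was 68.2% in windows of hypoxia targets, 68.4% in those of glycolysis genes and 58.0% in all windows, and both cores hold CG. Windows of 7 genes are printed 5′ to 3′ with ACGTG or CACGT in capitals. BHLHE40, P4HA1, BNIP3, ERO1A, ENO2 and PGK1 were lower in Rab25 cells or after serum, and were picked because they hold ACGTG. ADM was higher in Rab25 cells and holds no ACGTG, but its window does hold GCGTG, which is not put in capitals. Among other members, matches and directions went together in some and not in others. PLOD2 and HK2, lower in Rab25 cells and after serum, and EGLN1, lower after serum, hold ACGTG. SLC2A1 and PLOD1, lower in Rab25 cells, and KDM3A, lower after serum, hold no ACGTG, though PLOD1 and KDM3A hold GCGTG. PFKFB3, higher in Rab25 cells and after serum, holds 2 ACGTG in 1 of its windows. The printed windows lie at chr3:4979187-4979436 (plus strand, BHLHE40), chr10:73096867-73097116 (minus strand, P4HA1), chr10:131981924-131982173 (minus strand, BNIP3), chr14:52695559-52695808 (minus strand, ERO1A), chr12:6914330-6914579 (plus strand, ENO2), chrX:78103998-78104247 (plus strand, PGK1) and chr11:10304823-10305072 (plus strand, ADM), and each ends at the base before an annotated start.
BHLHE40: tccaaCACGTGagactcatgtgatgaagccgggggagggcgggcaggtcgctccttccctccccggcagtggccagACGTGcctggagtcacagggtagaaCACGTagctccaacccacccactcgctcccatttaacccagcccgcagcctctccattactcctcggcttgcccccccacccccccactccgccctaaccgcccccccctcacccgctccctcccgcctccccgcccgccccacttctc
P4HA1: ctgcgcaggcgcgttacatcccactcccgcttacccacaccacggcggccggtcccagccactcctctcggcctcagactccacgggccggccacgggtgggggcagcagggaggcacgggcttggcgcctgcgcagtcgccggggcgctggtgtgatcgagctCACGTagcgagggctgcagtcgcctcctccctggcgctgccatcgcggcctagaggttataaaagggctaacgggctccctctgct
BNIP3: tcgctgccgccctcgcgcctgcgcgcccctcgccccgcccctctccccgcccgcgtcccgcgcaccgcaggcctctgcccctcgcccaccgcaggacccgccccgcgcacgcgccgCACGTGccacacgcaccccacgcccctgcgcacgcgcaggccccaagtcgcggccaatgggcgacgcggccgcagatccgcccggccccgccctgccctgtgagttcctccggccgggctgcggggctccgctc
ERO1A: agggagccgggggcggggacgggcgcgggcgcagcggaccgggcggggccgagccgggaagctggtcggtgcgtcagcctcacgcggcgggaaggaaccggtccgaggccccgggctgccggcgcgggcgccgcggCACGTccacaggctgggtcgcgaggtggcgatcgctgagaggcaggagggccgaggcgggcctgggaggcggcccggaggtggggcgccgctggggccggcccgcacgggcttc
ENO2: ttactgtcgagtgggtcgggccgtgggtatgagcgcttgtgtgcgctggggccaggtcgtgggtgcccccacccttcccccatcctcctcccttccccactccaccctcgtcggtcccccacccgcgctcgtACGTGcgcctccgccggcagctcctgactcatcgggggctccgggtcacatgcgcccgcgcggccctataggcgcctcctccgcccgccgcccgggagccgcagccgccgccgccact
PGK1: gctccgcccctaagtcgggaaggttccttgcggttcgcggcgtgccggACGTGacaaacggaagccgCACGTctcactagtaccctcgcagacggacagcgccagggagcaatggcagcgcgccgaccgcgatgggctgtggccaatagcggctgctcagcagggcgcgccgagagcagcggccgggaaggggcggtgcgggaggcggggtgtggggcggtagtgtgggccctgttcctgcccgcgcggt
ADM: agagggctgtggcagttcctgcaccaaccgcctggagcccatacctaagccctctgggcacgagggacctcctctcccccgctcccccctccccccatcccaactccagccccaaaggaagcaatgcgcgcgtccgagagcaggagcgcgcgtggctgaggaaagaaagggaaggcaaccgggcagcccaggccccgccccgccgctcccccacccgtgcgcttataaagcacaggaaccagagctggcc
BHLHE40 held 4 matches, PGK1 and BNIP3 2 each, and P4HA1, ERO1A and ENO2 1 each. A match is a run of letters and not a measured binding site.

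The first comparison asked whether the lines differ over all 5 conditions, with the experiment as a block. Most of the larger differences in the set were lower in Rab25 cells: the glucose transporters SLC2A3 and SLC2A1, the stress gene NDRG1, the angiogenic factor VEGFA and the repressor BHLHE40 were all lower. By limma (Benjamini-Hochberg adjusted p under 0.05 over all genes), 12 of the 37 members fell and 3 rose, where 15.5% of all genes fell and 9.15% rose. Among the hypoxia targets 8 of 19 fell and 1 rose, with a median log2 difference of -0.14. Among the glycolysis genes 4 of 18 fell and 2 rose, with a median of -0.05. The median of all genes was -0.01. Quantile normalization gave 12 lower and 6 higher members with 1467 lower and 1477 higher genes, and centring each array on its median gave 9 lower and 5 higher members with 1258 lower and 1515 higher genes, against 1853 lower and 1093 higher genes as deposited. The plot of line differences shows all 37 members.

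**Figure D1:**
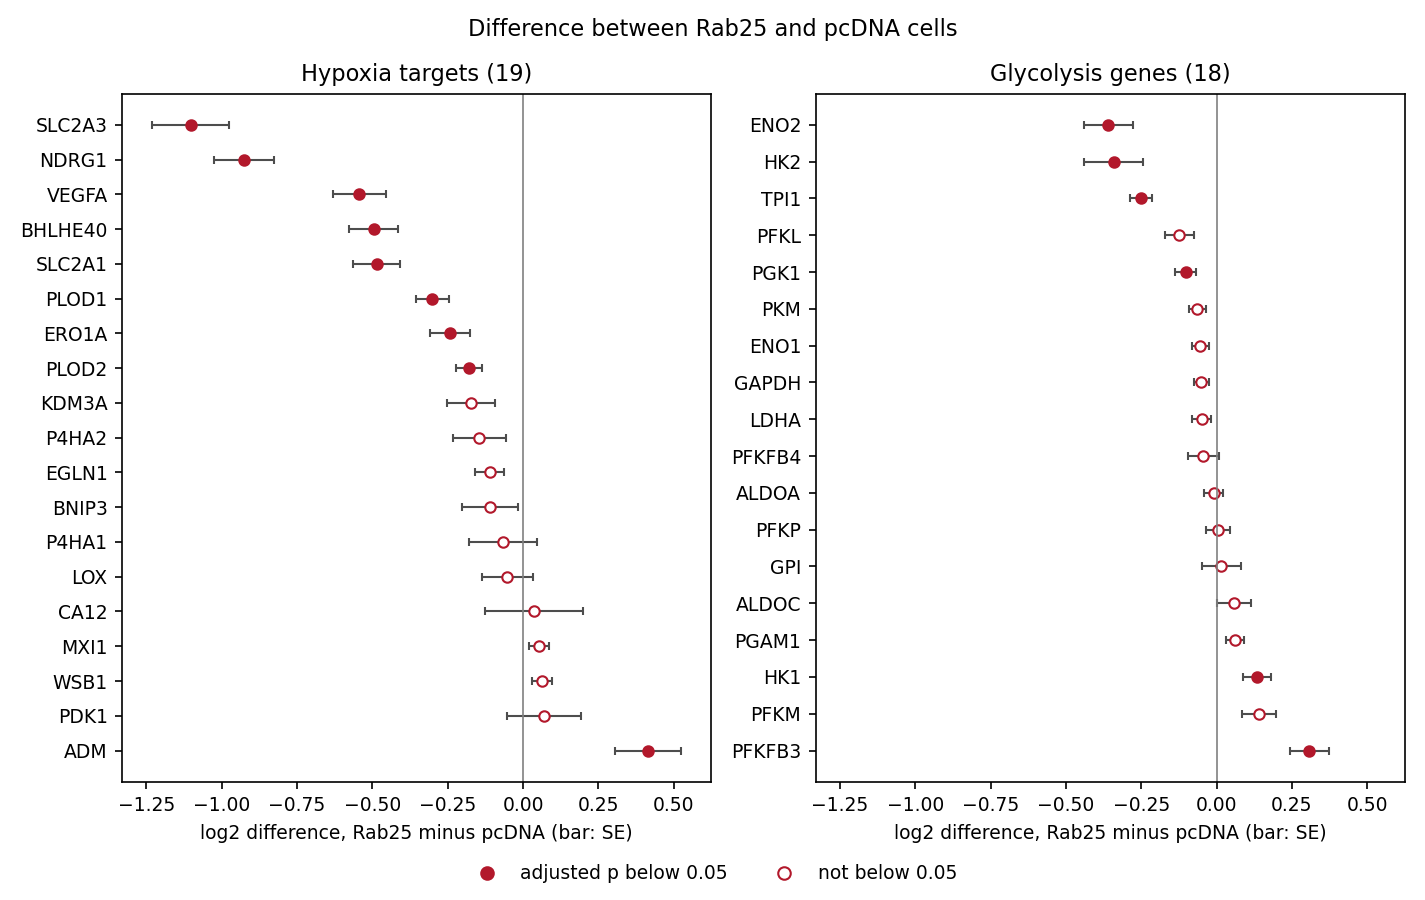
Rab25 minus pcDNA log2 difference over 5 conditions (x axis) for each of the 37 measured members (y axis), hypoxia targets and glycolysis genes apart; points are limma estimates, bars are SE, and filled points have an adjusted p under 0.05. SLC2A3 (-1.10) and NDRG1 (-0.93) lie farthest below 0, and ADM (0.41) and PFKFB3 (0.31) farthest above it.

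SLC2A3 (probe set 202497_x_at, chr12:7919230-7936187, GRCh38.p14), the high-affinity glucose transporter GLUT3, had signals of 7.48 (lowest), 8.53 (median) and 10.37 (highest) on the 12 Rab25 arrays, against 9.17, 9.49 and 11.27 on the 12 pcDNA arrays. The lines overlapped over the experiments, but Rab25 was the lower line in all 10 pairs of the same condition and experiment. The difference was -1.10 (SE 0.13, 2.15-fold lower, limma adjusted p = 6.96e-06), and the other 2 SLC2A3 probe sets gave -1.08 and -0.97. SLC2A1 (201250_s_at), the basal transporter GLUT1, was at 9.16, 10.27 and 10.40 in Rab25 cells, against 10.25, 10.62 and 10.81 in pcDNA cells. Its lowest value was Rab25 FBS 1, and Rab25 was again lower in all 10 pairs. The difference was -0.49 (SE 0.08, 1.40-fold lower, limma adjusted p = 0.000153), and -0.18 by its other probe set.

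NDRG1 (200632_s_at), which hypoxia and differentiation induce in many cells, was at 10.84, 11.40 and 12.59 in Rab25 cells, against 11.99, 12.14 and 13.34 in pcDNA cells. It was 1.90-fold lower in Rab25 cells (-0.93, SE 0.10, limma adjusted p = 3.66e-06) and lower in all 10 pairs. VEGFA (210512_s_at, chr6:43770211-43786487), the ligand that drives vessel growth, was at 11.13, 11.95 and 12.13, against 11.74, 12.35 and 12.84 in pcDNA cells. The lines overlapped, and Rab25 was lower in all 10 pairs (-0.54, SE 0.09, 1.46-fold lower, limma adjusted p = 0.000167). Its 3 other probe sets gave -0.52, -0.42 and -0.47. BHLHE40 (201170_s_at), a transcriptional repressor of the clock and hypoxia responses, was at 11.13, 11.99 and 12.82 in Rab25 cells, against 11.77, 12.37 and 12.98 in pcDNA cells. It too was lower in all 10 pairs (-0.50, SE 0.08, 1.41-fold lower, limma adjusted p = 0.000224).

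ADM (202912_at), the vasodilator peptide adrenomedullin, went the other way. It was at 10.82, 12.03 and 12.26 in Rab25 cells, against 10.40, 11.39 and 12.14 in pcDNA cells. It was higher in Rab25 cells in all 10 pairs (0.41, SE 0.11, 1.33-fold higher, limma adjusted p = 0.0101), and the lowest array of each line was the TGF beta array of experiment 2. ENO2 (201313_at), the neuronal form of the glycolytic enzyme enolase, was at 10.27, 10.68 and 11.60 in Rab25 cells, against 10.97, 11.17 and 11.68 in pcDNA cells. The lines overlapped (-0.36, SE 0.08, 1.28-fold lower, limma adjusted p = 0.00334). HK2 (202934_at), the inducible hexokinase that traps glucose in the cell, was at 8.59, 9.49 and 10.34, against 8.86, 9.93 and 10.53 in pcDNA cells. Its difference of -0.34 (SE 0.10, limma adjusted p = 0.0162) was not seen on its other, dimmer probe set, which gave 0.10. The plot of these 8 genes by array shows both the line and the experiment.

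**Figure D2:**
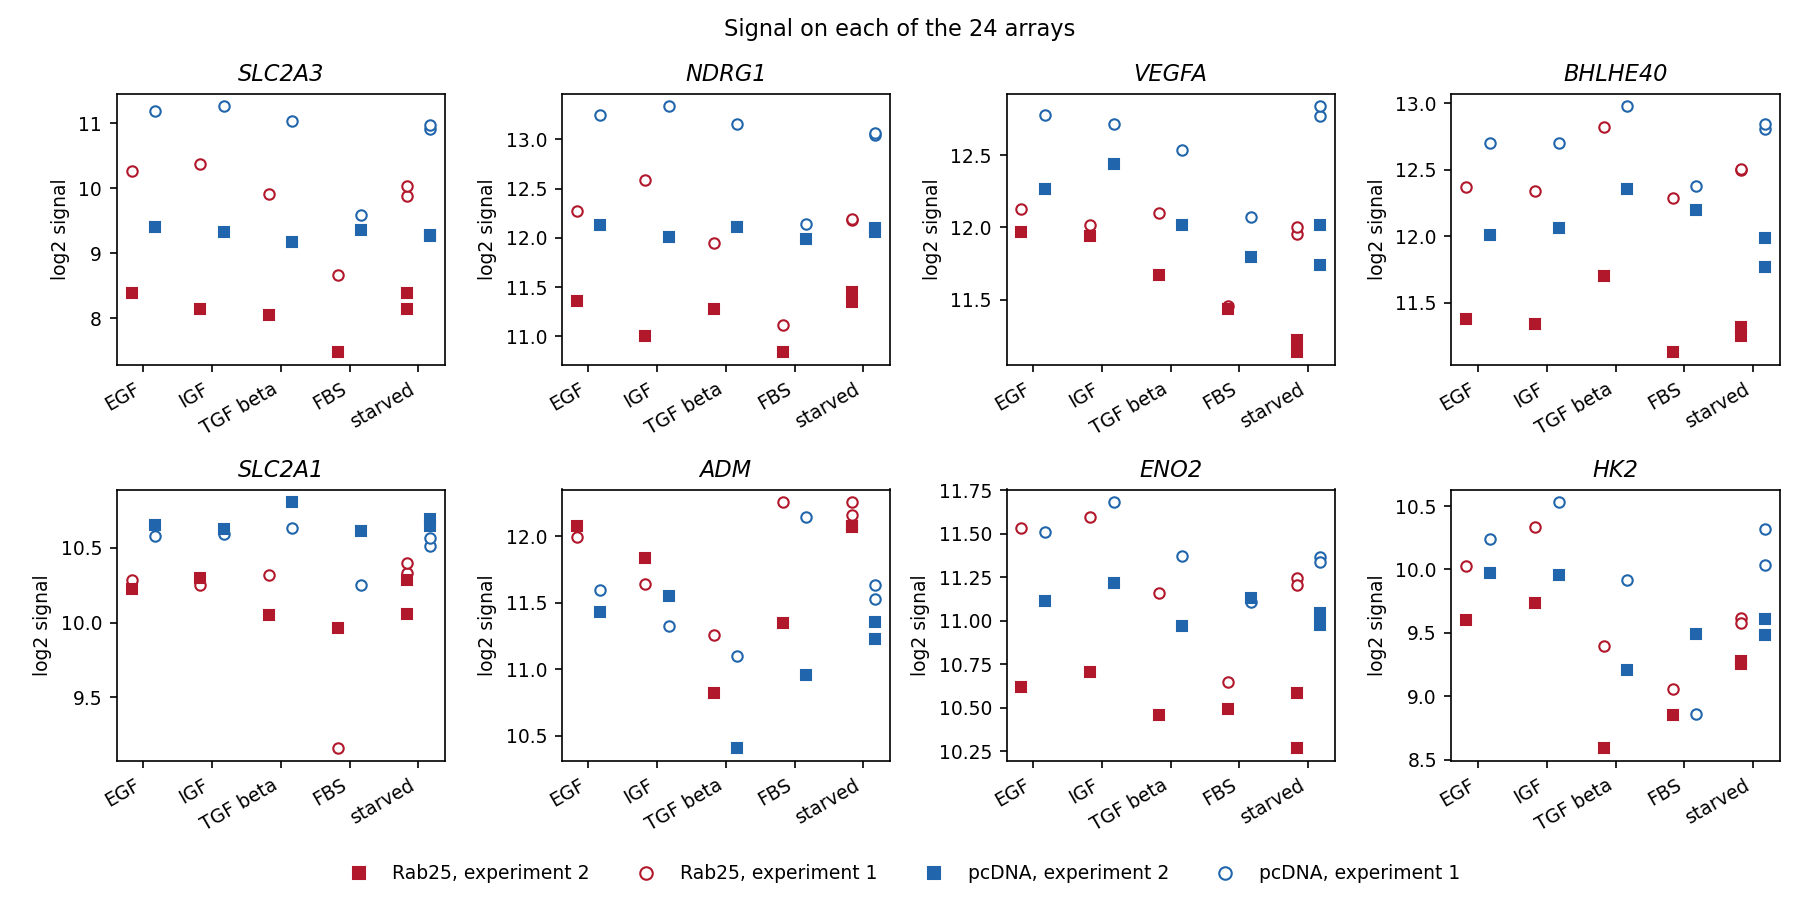
Log2 signal (y axis) of the 8 members with the largest called line differences on every array, Rab25 (red) left of pcDNA (blue); filled squares are experiment 2 and open circles experiment 1. In experiment 2 every Rab25 array of SLC2A3 and NDRG1 lies below every pcDNA array, and most experiment 1 arrays of both lines lie higher.

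The other called members differed less. PLOD1 and PLOD2, lysyl hydroxylases that prepare collagen for crosslinking, averaged 10.75 ± 0.14 and 13.58 ± 0.11 in Rab25 cells, against 11.02 ± 0.18 and 13.78 ± 0.11 in pcDNA cells (SD, n = 12), with differences of -0.30 and -0.18. ERO1A, the oxidase that forms disulfide bonds in the endoplasmic reticulum, averaged 9.56 ± 0.29 against 9.82 ± 0.17 (-0.24). TPI1, the isomerase of the triose phosphates, averaged 13.87 ± 0.08 against 14.10 ± 0.09 (-0.25), and its other probe sets gave -0.27 and -0.29. PGK1, the first ATP-forming step of glycolysis, averaged 14.40 ± 0.07 against 14.49 ± 0.07 (-0.10). PFKFB3, which makes the fructose bisphosphate that activates phosphofructokinase, was higher at 10.25 ± 0.20 against 9.92 ± 0.33 (0.31). HK1, the constitutive hexokinase, was higher at 11.86 ± 0.14 against 11.74 ± 0.08 (0.13). The HK1 and PGK1 calls were lost without both Rab25 FBS arrays (limma adjusted p = 0.0524 and 0.0707), which left 13 called members.

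In 10 hypoxia targets the lines did not pass the test. KDM3A, a histone demethylase, averaged 10.64 in Rab25 cells and 10.81 in pcDNA cells (-0.17), and was lower in all 10 pairs. EGLN1, the oxygen-sensing prolyl hydroxylase, averaged 9.51 and 9.63 (-0.11). The collagen prolyl hydroxylase subunits P4HA1 (11.65 and 11.72) and P4HA2 (9.69 and 9.82) differed by -0.07 and -0.14. LOX, which crosslinks collagen, averaged 9.69 and 9.76 (-0.05), and BNIP3, a mediator of mitochondrial autophagy, 13.15 and 13.27 (-0.11). All 6 had lower medians over the Rab25 arrays than over the pcDNA arrays. PDK1, which closes the entry of pyruvate to the mitochondria, averaged 8.06 and 7.96 (0.07), and CA12, a membrane carbonic anhydrase, 6.18 and 6.12 (0.04). MXI1, a MYC antagonist, averaged 11.19 and 11.12 (0.05), and WSB1, a ubiquitin ligase component, 11.45 and 11.40 (0.06), with probe sets that disagreed in sign.

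In 12 glycolysis genes the lines did not pass the test either. Along the pathway, GPI averaged 12.45 in Rab25 cells and 12.44 in pcDNA cells (0.02). The phosphofructokinase subunits averaged 12.70 and 12.68 (PFKP, 0.00), 9.26 and 9.38 (PFKL, -0.12), and 11.20 and 11.06 (PFKM, 0.14). PFKFB4, a relative of PFKFB3, averaged 6.26 and 6.31 (-0.04). The aldolases averaged 14.13 and 14.14 (ALDOA, -0.01), and 6.12 and 6.07 (ALDOC, 0.06). These 7 differences ran between -0.12 and 0.14. Below the split into triose phosphates, GAPDH averaged 15.06 and 15.11 (-0.05), PGAM1 14.04 and 13.98 (0.06), and ENO1 14.17 and 14.22 (-0.05). PKM, the last ATP-forming step, averaged 13.98 and 14.03 (-0.06), and LDHA, which makes lactate, 14.93 and 14.98 (-0.05).

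Over all 10 pairs of condition and experiment, 9 of the 37 members were below 0 each time (NDRG1, SLC2A1, SLC2A3, KDM3A, VEGFA, BHLHE40, TPI1, GAPDH and PGK1), a share of 24.3%, against 9.98% of all genes. ADM, HK1, PFKFB3 and PFKM were above 0 each time (10.8%, against 5.80% of all genes). Within experiment 2 alone 13 members were lower and 2 higher by limma (all genes 16.1% and 9.12%), and within experiment 1 alone 12 were lower and 4 higher (all genes 14.1% and 10.6%). The fits within an experiment had 2 residual degrees of freedom, as only the starved groups hold more than 1 array there. The widest member over 24 arrays was SLC2A3, with a range of 3.79, followed by NDRG1 (2.50) and CA12 (2.40). The narrowest was GAPDH (0.145).

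In starved cells alone, with 4 arrays a line, 6 members were lower and 2 higher by limma, where 9.23% of all genes were lower and 5.55% higher. With quantile normalization 4 members were lower and 3 higher (all genes 7.47% and 7.86%), and with arrays centred on their medians 3 and 2 (all genes 6.45% and 6.26%). SLC2A3 was at 8.39, 8.15, 9.88 and 10.03 in starved Rab25 cells (2 arrays of experiment 2, then 2 of experiment 1), against 9.28, 9.27, 10.90 and 10.97 in starved pcDNA cells. VEGFA was at 11.13, 11.22, 11.95 and 12.00, against 12.01, 11.74, 12.77 and 12.84. NDRG1 was at 11.35, 11.45, 12.18 and 12.19, against 12.06, 12.10, 13.04 and 13.07. Every Rab25 array of these 3 genes was below both pcDNA arrays of its own experiment. The log2 differences were -0.99 (SE 0.21) for SLC2A3, -0.76 (SE 0.14) for VEGFA and -0.77 (SE 0.17) for NDRG1, with limma adjusted p = 0.00449, 0.00185 and 0.00489. BHLHE40 (-0.46), ERO1A (-0.38) and PLOD2 (-0.30) were also lower. ADM was at 12.07, 12.07, 12.16 and 12.26 in starved Rab25 cells, against 11.35, 11.22, 11.63 and 11.53 in starved pcDNA cells. The lines did not overlap for ADM (0.71, SE 0.18), and PFKFB3 was the other higher member (0.42, SE 0.11). Without the pcDNA starved array 2-1, 5 members passed.

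Genes around the set were read from lists made for this report. Of 15 measured genes of the HIF machinery 5 were lower in Rab25 cells over the 5 conditions and 0 higher by limma, against the same 15.5% and 9.15% of all genes. They were EPAS1, the HIF-2 alpha subunit (-0.66), the coactivators CREBBP (-0.63) and EP300 (-0.14), CITED2 (-0.52), and ELOC, a part of the VHL ligase (-0.19). HIF1A, the HIF-1 alpha subunit (-0.16, limma adjusted p = 0.0875), ARNT (0.04) and VHL (-0.03) did not pass the test. HIF alpha subunits are set mainly at the level of protein, which these arrays do not read.

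Of 18 other hypoxia targets 10 were lower in Rab25 cells and 1 higher, where 15.5% of all genes were lower and 9.15% higher. The lower ones were DDIT4, an inhibitor of mTORC1 (-0.78), HMOX1, which breaks down haem (-0.61), STC1 (-0.44) and STC2 (-0.39), glycoprotein hormones, INSIG2 (-0.38), AK4 (-0.34), the transferrin receptor TFRC (-0.26), KDM4B (-0.19), FAM162A (-0.16) and MIF (-0.13). HILPDA, a lipid droplet protein, was the higher one (0.28). Of 20 other genes of glycolysis and fuel use 4 were lower, LDHB (-0.63), TIGAR (-0.31) and the pentose phosphate enzymes TKT (-0.26) and TALDO1 (-0.19), and PGM1 was higher (0.23), which is near the shares of all genes.

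EGF, IGF and TGF beta were each compared with starved cells over both lines, and these contrasts share the starved arrays. With EGF, 0 of the 37 members and 0 of all 11940 genes passed the limma threshold (0% of all genes), while 3 members and 813 genes had an unadjusted p under 0.05. The members of lowest p were VEGFA (0.32, SE 0.13, limma adjusted p = 0.657) and ERO1A (0.24, SE 0.10, limma adjusted p = 0.661). VEGFA was at 11.97 (experiment 2) and 12.13 (experiment 1) with EGF in Rab25 cells, against 11.13, 11.22, 11.95 and 12.00 starved, and at 12.26 and 12.78 with EGF in pcDNA cells, against 12.01, 11.74, 12.77 and 12.84 starved. In experiment 2 both lines were above their starved arrays, and in experiment 1 the pcDNA array lay between its starved arrays. ERO1A was at 9.48 and 9.99 with EGF in Rab25 cells, against 9.34, 9.34, 9.44 and 9.60 starved. In pcDNA cells ERO1A was at 9.94 and 10.01, against 9.85, 9.71, 9.78 and 9.88 starved.

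With IGF, which signals through a receptor tyrosine kinase to growth and glucose use, 1 member passed: MXI1 was lower (-0.25, SE 0.05, limma adjusted p = 0.0129), where 1.52% of all genes were lower and 1.17% higher. MXI1 was at 10.73 and 11.23 with IGF in Rab25 cells (experiment 2, then 1), against 11.03, 11.02, 11.55 and 11.74 starved. In pcDNA cells MXI1 was at 10.80 and 11.37, against 10.93, 10.89, 11.51 and 11.56 starved. Every IGF array was below the starved arrays of its line and experiment. The call was lost without pcDNA IGF 1, without Rab25 IGF 1 or after centring arrays on their medians, which left 0 called members. The experiments differed in this response for 4 members, by limma with treatment by experiment terms (all genes 1.08% higher and 0.335% lower). VEGFA was higher in experiment 2 (difference of responses 0.69, SE 0.13), as was PFKFB3 (0.52, SE 0.12), and GPI (-0.60, SE 0.13) and NDRG1 (-0.58, SE 0.12) were lower. VEGFA with IGF was at 11.94 in Rab25 cells and 12.44 in pcDNA cells of experiment 2, above the starved 11.13 and 11.22, and 12.01 and 11.74. In experiment 1 it was at 12.02 and 12.71, near the starved 11.95 and 12.00, and 12.77 and 12.84.

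Within experiment 2 alone, VEGFA (0.66) and HK2 (0.44) were higher with IGF and 0 members lower by limma (1.23% and 1.09% of all genes). Within experiment 1 alone 7 members were higher (3.39% of all genes), ERO1A (0.55), HK2 (0.55), GPI (0.43), the collagen hydroxylase P4HA2 (0.38), SLC2A3 (0.37), ENO2 (0.35) and NDRG1 (0.34), and ADM was lower (-0.41, 5.12% of all genes). HK2 was at 9.73 (experiment 2) and 10.34 (experiment 1) with IGF in Rab25 cells, against 9.25, 9.28, 9.62 and 9.58 starved. In pcDNA cells HK2 was at 9.96 and 10.53, against 9.61, 9.49, 10.03 and 10.32 starved. All 4 IGF arrays were above their starved arrays, though HK2 over both experiments did not pass the test. Each treated group has 1 array within an experiment, so these fits rest on the spread of the starved pairs.

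With TGF beta, a cytokine that acts through SMAD factors, ADM was the 1 member to pass (-0.89, SE 0.16, 1.85-fold lower, limma adjusted p = 0.00762), where 0.754% of all genes were lower and 0.846% higher. ADM was at 10.82 and 11.26 with TGF beta in Rab25 cells (experiment 2, then 1), against 12.07, 12.07, 12.16 and 12.26 starved. In pcDNA cells ADM was at 10.40 and 11.10, against 11.35, 11.22, 11.63 and 11.53 starved. No TGF beta array reached a starved array of its line, although 0 members passed without pcDNA TGF beta 2. ADM was lower within each experiment too (-1.07 in experiment 2 and -0.71 in experiment 1, where 0.394% of all genes were lower and 0.528% higher). Within experiment 2 alone BHLHE40 (0.45) and PFKFB3 (0.39) were higher (1.80% of all genes) and HK2 (-0.51) was lower (1.60% of all genes). The difference between lines in the response to EGF, IGF or TGF beta passed for 0 members and 0 of all genes by limma (0% of all genes). At an unadjusted p under 0.05 there were 0, 1 and 0 members, with no share of all genes given. The members of lowest p were TPI1 (-0.16, SE 0.11) and PFKP (-0.16, SE 0.11) for EGF, MXI1 (-0.22, SE 0.10) and ERO1A (0.27, SE 0.19) for IGF, and PLOD2 (0.20, SE 0.12) and VEGFA (0.37, SE 0.25) for TGF beta.

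**Figure D3:**
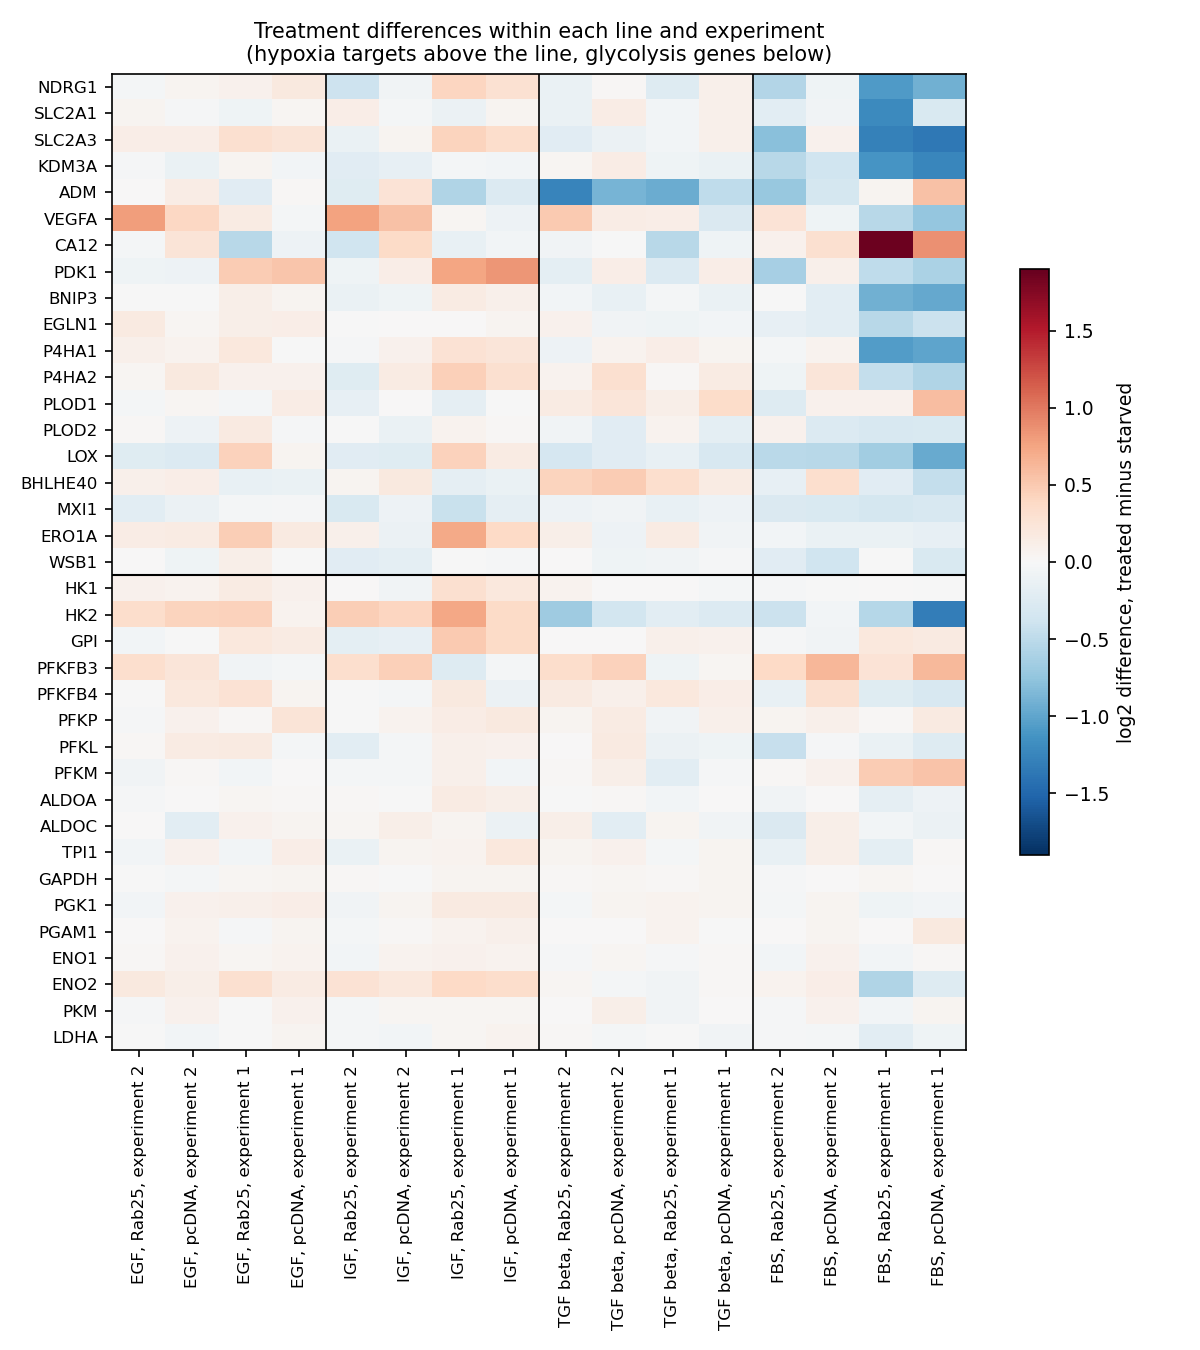
Log2 difference of each treated array from the mean of the 2 starved arrays of its line and experiment, for 37 members (rows) over 4 treatments, 2 lines and 2 experiments (16 columns); red is higher and blue lower than starved. The FBS columns of experiment 1 hold the most blue among the hypoxia targets, and ADM is blue in all 4 TGF beta columns.

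Serum was the treatment with the most changes in the set. Over both lines 13 of the 37 members were lower with FBS and 3 higher by limma, where 10.8% of all genes were lower and 6.43% higher. KDM3A (-0.82, SE 0.11), SLC2A3 (-0.84, SE 0.18) and NDRG1 (-0.66, SE 0.15) had the largest falls beside LOX (-0.66, SE 0.12). Also lower were MXI1 (-0.30), EGLN1 (-0.33), WSB1 (-0.23), HK2 (-0.58), SLC2A1 (-0.44), BNIP3 (-0.52), PLOD2 (-0.19), P4HA1 (-0.51) and PFKL (-0.21). PFKFB3 (0.47), PFKM (0.28) and CA12 (0.78) were higher. In Rab25 cells alone 7 members were lower and 0 higher (all genes 5.09% and 2.64%), and in pcDNA cells alone 4 were lower and 1, PFKFB3 (0.62), higher (all genes 4.46% and 2.31%). In Rab25 cells quantile normalization gave 5 lower and 1 higher, with 416 of all genes lower and 441 higher. Centring on array medians gave 3 lower and 1 higher, with 300 lower and 481 higher of all genes, where the values as deposited gave 608 and 315. Without both Rab25 FBS arrays the FBS comparison rests on pcDNA cells alone. There 8 members were then lower and 3 higher, with no share of all genes given for that fit.

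KDM3A was at 9.88 (experiment 2) and 10.07 (experiment 1) with FBS in Rab25 cells, against 10.39, 10.42, 11.14 and 11.24 starved. In pcDNA cells KDM3A was at 10.17 and 10.17, against 10.50, 10.61, 11.36 and 11.45 starved. All 4 FBS arrays were below every starved array (-0.82 in Rab25 and -0.81 in pcDNA cells, SE 0.16 each, limma adjusted p = 0.0068 and 0.00784). SLC2A3 was at 7.48 and 8.67 with FBS in Rab25 cells, against 8.39, 8.15, 9.88 and 10.03 starved. In pcDNA cells SLC2A3 was at 9.36 and 9.58, against 9.28, 9.27, 10.90 and 10.97 starved, so the pcDNA array of experiment 2 was not lower. It passed in Rab25 cells (-1.04, SE 0.26, limma adjusted p = 0.0241). NDRG1 was at 10.84 and 11.12 with FBS in Rab25 cells, against 11.35, 11.45, 12.18 and 12.19 starved (-0.81, SE 0.21, limma adjusted p = 0.0251). In pcDNA cells NDRG1 was at 11.99 and 12.14, against 12.06, 12.10, 13.04 and 13.07 starved.

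LOX was at 9.01 and 9.41 with FBS in Rab25 cells, against 9.47, 9.57, 9.97 and 10.16 starved (-0.58, SE 0.17). In pcDNA cells LOX was at 9.04 and 9.37, against 9.69, 9.45, 10.24 and 10.43 starved (-0.75, SE 0.17, limma adjusted p = 0.0162). All FBS arrays were below all starved arrays of their line for LOX. PFKFB3 with FBS was at 10.52 and 10.42 in Rab25 cells, against 10.16, 10.10, 10.18 and 10.13 starved. In pcDNA cells PFKFB3 was at 10.47 and 10.23, against 9.76, 9.90, 9.57 and 9.67 starved. It was above every starved array in both lines. SLC2A1 (-0.71), EGLN1 (-0.34) and MXI1 (-0.30) were the other lower members in Rab25 cells, and WSB1 (-0.34) and MXI1 (-0.29) in pcDNA cells. The Rab25 values rest on both arrays with raised stroma and breast markers, and their part in the result was not tested. On the pcDNA FBS arrays the stroma markers averaged 6.77 (array 1) and 6.68 (array 2). KDM3A, LOX and MXI1 were called lower in both lines, and SLC2A3, NDRG1, SLC2A1 and EGLN1 in Rab25 cells only. These calls moved with single arrays. All calls in a line were lost without FBS array 1 of that line. Over fits that left out 1 array, KDM3A lay between -1.10 and -0.55 in Rab25 cells and between -1.19 and -0.43 in pcDNA cells.

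Between the lines, the test of the FBS response was passed by 0 members with limma (all genes 0.142% higher and 0.0670% lower), with 4 members at an unadjusted p under 0.05. The share of all genes at that unadjusted p is not given, so these 4 cannot be set against other genes. PLOD1 (-0.41, SE 0.16, limma adjusted p = 0.347) and SLC2A1 (-0.53, SE 0.22, limma adjusted p = 0.386) had the lowest p. PLOD1 was at 10.49 and 10.91 with FBS in Rab25 cells, against 10.66, 10.79, 10.88 and 10.76 starved. In pcDNA cells PLOD1 was at 11.07 and 11.39, against 10.93, 11.06, 10.81 and 10.82 starved, all above them. Between the experiments, the signed response (FBS minus starved) was higher in experiment 2 for 10 members and lower for 4 by limma. Of all genes, 9.55% had a higher and 12.9% a lower one. For a gene that fell with FBS in both experiments, a higher response is a smaller fall. KDM3A in pcDNA cells was at 10.17 with FBS against 10.50 and 10.61 starved in experiment 2. In experiment 1 it was at 10.17 against 11.36 and 11.45. Of the 10, 8 are hypoxia targets: P4HA1 (1.04), SLC2A3 (0.97), BNIP3 (0.83), KDM3A (0.72), VEGFA (0.72), NDRG1 (0.67), SLC2A1 (0.62) and P4HA2 (0.59). HK2 (0.69) and PFKFB4 (0.35) were the others, and CA12 (-1.17), ADM (-0.83), PFKM (-0.46) and PLOD1 (-0.41) were lower. The same starved arrays enter the comparison of experiments in starved cells below, so the 2 results are not independent. A lower starved level in experiment 2 makes this difference of responses higher. Leaving out both Rab25 FBS arrays, or either of them, gave the same values, since a lone array is fitted by its own group term. For FBS they rest on the pcDNA pair of arrays alone. SLC2A1 (0.39), P4HA2 (0.59), CA12 (-0.46) and PLOD1 (-0.36) then no longer passed, BHLHE40 (0.91, 0.42 with all arrays) did, HK2 was at 1.11 and SLC2A3 at 1.45. Leaving out either pcDNA FBS array likewise left the Rab25 pair, with SLC2A3 at 0.49, CA12 at -1.88 and BHLHE40 at -0.07. P4HA2 (0.58), HK2 (0.27), PFKFB4 (0.19) and PLOD1 (-0.46) then no longer passed, while PLOD2 (0.38, 0.21 with all arrays) did. The values thus differed by line for SLC2A3, BHLHE40 and HK2, and that difference was not tested. With the median of probe sets HK2 (0.05) and SLC2A1 (0.32) did not pass, and PKM (0.50) did. With centring PFKM (-0.34) and PLOD1 (-0.30) did not, and LOX (0.41) did.

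P4HA1 with FBS was at 11.43 (experiment 2) and 10.86 (experiment 1) in Rab25 cells, against 11.46, 11.48, 11.82 and 12.02 starved. In pcDNA cells P4HA1 was at 11.59 and 10.98, against 11.62, 11.44, 11.97 and 11.98 starved. BNIP3 with FBS was at 13.16 and 12.38 in Rab25 cells, against 13.14, 13.18, 13.27 and 13.31 starved. In pcDNA cells BNIP3 was at 13.15 and 12.45, against 13.37, 13.34, 13.42 and 13.41 starved. For both genes the lowest array of each line was the FBS array of experiment 1. Over both lines, within experiment 2 alone, 7 members were lower (all hypoxia targets) and 1 higher (all genes 7.14% and 3.32%). Within experiment 1 alone 16 were lower, 13 of them hypoxia targets, and 5 higher (all genes 17.3% and 17.2%). Those fits within an experiment rest on the spread of the starved pairs, with 2 residual degrees of freedom. The median difference of the 19 hypoxia targets from starved cells in experiment 2 was -0.20 in Rab25 and -0.09 in pcDNA cells. In experiment 1 it was -0.48 in Rab25 and -0.45 in pcDNA cells. The median of all genes was -0.09, 0.00, -0.01 and -0.02 in the same order. CA12 was at 8.10 on Rab25 FBS 1, where EPCAM was at 8.49, against 5.70 to 6.83 on the other 23 arrays. The plot of FBS responses sets the experiments side by side.

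**Figure D4:**
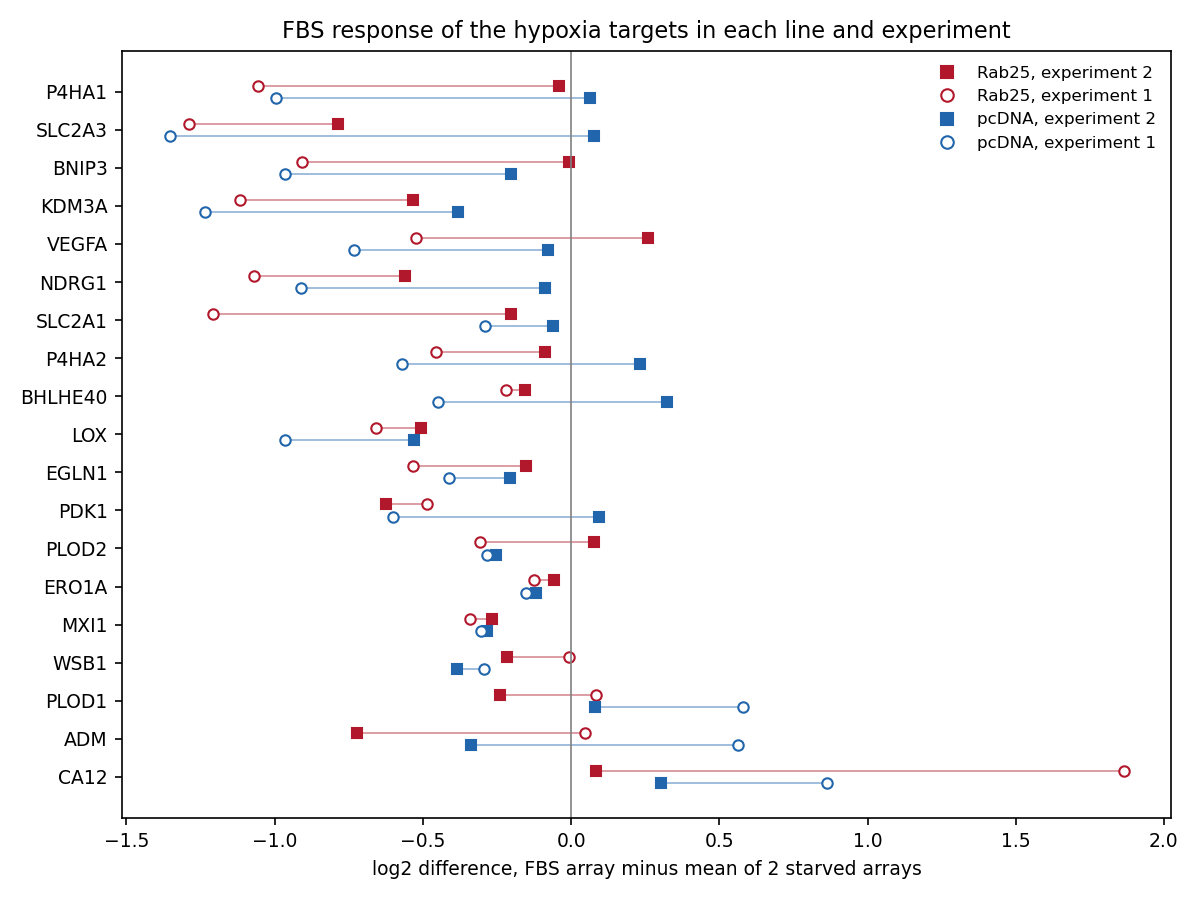
Log2 difference of each FBS array from the mean of the 2 starved arrays of its line and experiment (x axis) for 19 hypoxia targets (y axis); Rab25 is red and pcDNA blue, filled squares are experiment 2 and open circles experiment 1. For P4HA1, SLC2A3, BNIP3 and KDM3A the open circles lie left of the squares in both lines, while CA12 and ADM run the other way.

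Finally the experiments themselves were compared, which the labels tie to a possible difference in exposure time. Over the 10 groups 16 members were lower in experiment 2 and 6 higher by limma, where 20.4% of all genes were lower and 20.1% higher. With centring on array medians 13 members were lower and 7 higher (all genes 16.1% and 27.7%), and quantile normalization gave 16 and 6. P4HA1, PFKFB4 and HK1 were the lower members that did not pass with centring. The hypoxia targets made up most of the lower ones: 12 of 19 were lower and 0 higher, and their median was -0.31, against 0.01 for all genes. Among the glycolysis genes 4 were lower and 6 higher. SLC2A3 was at 7.48 (lowest), 8.78 (median) and 9.40 (highest) on the 12 arrays of experiment 2, against 8.67, 10.32 and 11.27 on the 12 arrays of experiment 1 (-1.64, SE 0.12, 3.11-fold lower, limma adjusted p = 3.45e-08). BHLHE40 was at 11.13, 11.73 and 12.36, against 12.29, 12.61 and 12.98 (-0.90, SE 0.08, limma adjusted p = 1.51e-07). NDRG1 was at 10.84, 11.72 and 12.13, against 11.12, 12.43 and 13.34 (-0.88, SE 0.10, limma adjusted p = 1.68e-06). The experiments overlapped for all 3.

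For MXI1 and P4HA2 they did not overlap. MXI1 was at 10.62, 10.84 and 11.03 in experiment 2, against 11.23, 11.51 and 11.74 in experiment 1 (-0.61, SE 0.03). P4HA2 was at 9.17, 9.40 and 9.53, against 9.55, 10.16 and 10.57 (-0.77, SE 0.08). LOX (-0.78), KDM3A (-0.70), VEGFA (-0.48), P4HA1 (-0.33), WSB1 (-0.31), ADM (-0.31) and ERO1A (-0.23) were the other lower hypoxia targets. In glycolysis ENO2 (-0.52), HK2 (-0.41), PFKFB4 (-0.13) and HK1 (-0.12) were lower, and PFKFB3 (0.31), PGAM1 (0.18), PFKL (0.13), ENO1 (0.12), PKM (0.11) and LDHA (0.09) higher. Several of the small differences lost their call when 1 array was left out, while their estimates kept their sign. The call was lost for PFKFB4 without any 1 of 20 of the 24 arrays, for HK1 without any of 14, for PFKL without any of 11, for LDHA without any of 8 and for ADM without any of 4. Without both Rab25 FBS arrays ADM, HK1 and LDHA were not called. PGAM1, a mutase of lower glycolysis, was at 14.04, 14.10 and 14.13 in experiment 2, against 13.79, 13.95 and 14.03 in experiment 1, with no overlap. In all 10 groups 10 of the 37 members were lower in experiment 2 (27.0%, against 8.06% of all genes), and 9 of these were hypoxia targets.

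In starved cells alone, where the protocol gives no addition, 13 members were lower in experiment 2 and 2 higher by limma, where 16.6% of all genes were lower and 14.8% higher. Of the hypoxia targets 11 of 19 were lower and 0 higher, with a median of -0.24, against 0.01 for all genes. The largest differences were SLC2A3 (-1.68, SE 0.11, limma adjusted p = 6.88e-07), BHLHE40 (-1.09, SE 0.13, limma adjusted p = 5.45e-05) and NDRG1 (-0.88, SE 0.07, limma adjusted p = 2.09e-06). BHLHE40 was at 11.25 and 11.32 in starved Rab25 cells and 11.98 and 11.77 in starved pcDNA cells of experiment 2, against 12.50 and 12.51, and 12.80 and 12.85, in experiment 1. The experiments did not overlap within either line. VEGFA (-0.87), P4HA2 (-0.82), KDM3A (-0.81), LOX (-0.66), MXI1 (-0.62), P4HA1 (-0.45), WSB1 (-0.24) and ADM (-0.21) followed, with ENO2 (-0.57) and HK2 (-0.48). GPI, the isomerase of the second step, was higher (0.27), as was PGAM1 (0.21). The 3′ minus 5′ signal of ACTB, a measure of RNA integrity, had a median of 0.860 in starved experiment 2 and 0.988 in starved experiment 1. That of GAPDH ran the other way, at 0.2915 and 0.282. The part of RNA integrity in the result was not tested.

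**Figure D5:**
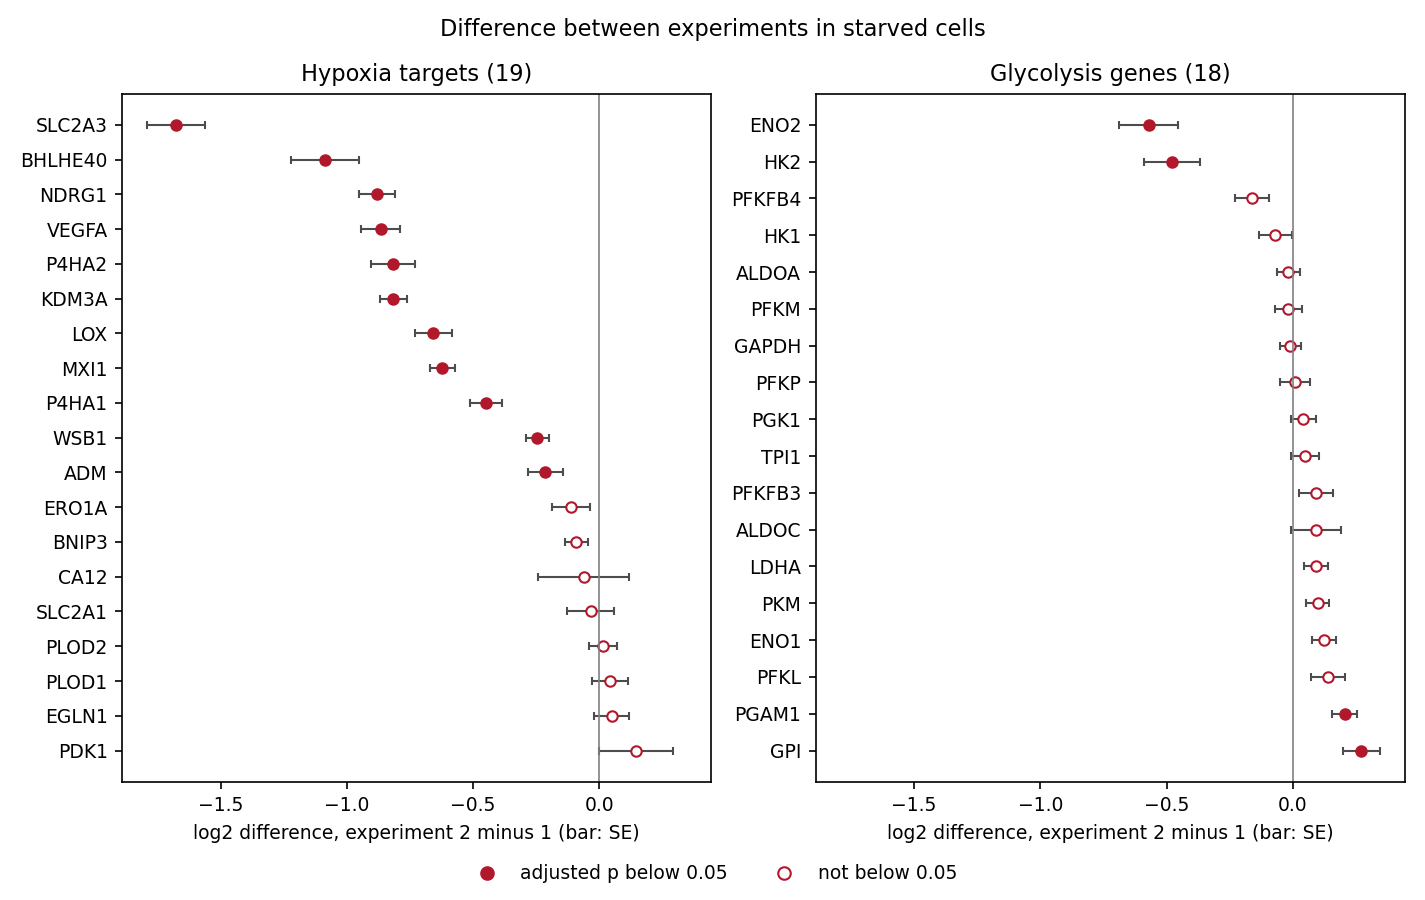
Experiment 2 minus experiment 1 log2 difference in starved cells of both lines (x axis) for 37 members (y axis), drawn as limma estimates with SE bars; filled points have an adjusted p under 0.05. SLC2A3 (-1.68) and BHLHE40 (-1.09) lie farthest below 0, and no hypoxia target lies above 0 with a filled point.

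Treatment responses as a whole differed between the experiments for 15 members by limma's moderated F test over 4 terms, 11 of them hypoxia targets, where 16.9% of all genes passed. BNIP3, P4HA1 and ADM had the lowest adjusted p (8.49e-05, 0.000164 and 0.000389, limma). Without both Rab25 FBS arrays 10 members passed, with no share of all genes given for that fit.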

How the data were processed

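The deposited values are log2 signals, 1 per probe set on each of the 24 arrays. MAS5 and RMA are named as tools per the submitters' processing notes, with no version, role or order, so the background correction and the normalization are not known step by step. Of 22930 probe sets, 524 and 57 were controls of 2 kinds and 19359 had a single gene symbol in the platform annotation, which gave 11940 genes at 1 probe set each, that of highest mean. Nothing was rescaled. limma 3.58.1 in R 4.3.3 (lmFit, eBayes) was fitted on all 24 arrays, with 10 groups and the experiment as a block (13 residual degrees of freedom). A further fit added treatment by experiment terms (9). Fits within 1 experiment had 2 residual degrees of freedom. P values were adjusted by Benjamini and Hochberg's method across the whole gene table, with a threshold of 0.05. The block was used because every group spans both experiments and 45 pairs of groups deviated together between them (median correlation across genes 0.658, lowest 0.092, highest 0.858). The fits were tested on simulated data. Arrays have no read depth, and their number limits precision. The treatment contrasts share the starved arrays.

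All members were given with level and line difference, and array values were given for the 8 called members of largest line difference and up to 3 called members of each other contrast, or the 2 of lowest p where none was called. Members and lists were chosen with earlier results of these data known. Alternatives are described in the closing section.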

Additional observations from a re-analysis of the deposited data

Results flagged for a closer look

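In starved pcDNA cells, 1 array of experiment 1 (1-1) lay farther from the other 3 than Dixon's 95% limit for PFKL (9.27, next value 9.41) and PGK1 (14.35, next value 14.47). These were 2 of 74 tests, both of the same array. The limit holds for values of 1 population, while these arrays span both experiments, so no chance rate is given.

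The IGF response differed between the experiments by limma's treatment by experiment terms. In experiment 2 it was higher for VEGFA (0.69) and PFKFB3 (0.52) and lower for NDRG1 (-0.58) and GPI (-0.60). The FBS response, taken as FBS minus starved, was higher in experiment 2 for P4HA1 (1.04), SLC2A3 (0.97), BNIP3 (0.83), KDM3A (0.72), VEGFA (0.72), HK2 (0.69), NDRG1 (0.67), SLC2A1 (0.62), P4HA2 (0.59) and PFKFB4 (0.35). It was lower for CA12 (-1.17), ADM (-0.83), PFKM (-0.46) and PLOD1 (-0.41). For a gene that fell with FBS in both experiments, a higher response is a smaller fall. Without either Rab25 FBS array CA12 (-0.46), SLC2A1 (0.39), P4HA2 (0.59) and PLOD1 (-0.36) were not called, while BHLHE40 (0.91) was. Without either pcDNA FBS array HK2 (0.27), P4HA2 (0.58), PFKFB4 (0.19) and PLOD1 (-0.46) were not called, while PLOD2 (0.38) was. SLC2A3 was at 0.49 from the Rab25 pair of FBS arrays and at 1.45 from the pcDNA pair. HK2 was at 0.05 with the median of its probe sets.

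Marker genes of other cell types were raised on both Rab25 FBS arrays. The fibroblast and stroma markers averaged 10.96 on array 1 and 9.25 on array 2, against at most 7.23 on the other 22 arrays, and the breast epithelium markers 6.52 and 6.35, against at most 5.65. Of 7 markers each, 5 and 2 were above all other arrays on both.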

How the results depend on the processing

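Without the replicate block (the experiment) the members called were 6 in place of 15 for the lines over 5 conditions, 1 in place of 8 for starved lines, 0 in place of 1 for IGF and for TGF beta, 0 in place of 5 for FBS in pcDNA cells and 1 in place of 7 for FBS in Rab25 cells. Treatment by experiment terms gave 14 for starved lines, 1 for EGF (main value 0), 5 for IGF, 2 for TGF beta, 15 for FBS in pcDNA and 16 in Rab25 cells. Experiment 2 alone gave 2 for IGF, 4 for TGF beta and 1 for FBS in pcDNA cells. Experiment 1 alone gave 8 for IGF, 16 for FBS in pcDNA cells, 14 in Rab25 cells and 1 for the FBS response between lines. Centring gave 5 for starved lines, 0 for IGF and 4 for FBS in Rab25 cells. Array quality weights gave 2 for IGF, 1 for FBS in pcDNA and 0 in Rab25 cells. For FBS in pcDNA cells the median over probe sets gave 3, leaving out the lowest 40% of genes 8, and leaving out both Rab25 FBS arrays 11. Leaving out each array in turn gave 13 to 18 for the lines, 5 to 9 for starved lines, 0 to 2 for IGF, 0 to 2 for TGF beta, 0 to 13 for FBS in pcDNA cells, 0 to 12 in Rab25 cells, 0 to 2 for the FBS response between lines, 18 to 21 for the experiments, 14 to 15 for the experiments in starved cells and 10 to 14 for the F test. For FBS in Rab25 cells it gave 4 without the Rab25 starved array 1-2 or 2-2. For IGF it gave 2 without pcDNA FBS 1, pcDNA FBS 2 or Rab25 IGF 2, for TGF beta 2 without pcDNA FBS 1 or pcDNA FBS 2, and for the FBS response between lines 2 without Rab25 FBS 2. The cause was not tested in any of these. Counts in this section, and those for left-out arrays elsewhere, have no share of all genes beside them. They do not show whether members moved apart from other genes.

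The line calls of NDRG1, PLOD1, SLC2A1, TPI1 and VEGFA were kept under every setting run and without each array, whereas HK1 and PGK1 lost theirs without 14 and 16 of the 24 arrays. The experiment difference of HK2 reversed to 0.10 with the median of its probe sets (-0.41 otherwise). Leaving out both Rab25 FBS arrays, each FBS array in turn, quantile normalization, centring and the median of probe sets for the FBS response between experiments, and the F test without both Rab25 FBS arrays, were added after the data were seen; that response had 11 to 14 called members under them. For that response, leaving out both Rab25 FBS arrays or either of them gave the same values, as did leaving out either pcDNA FBS array. With 1 or 2 arrays a treated group in a line, small responses could be missed.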

Other observations

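With FBS, 12 of the 37 members were below starved cells in all 4 combinations of line and experiment (32.4%, against 14.9% of all genes), and 9 of these were hypoxia targets. With EGF, 8 of the 37 were above starved cells in all 4 (21.6%, against 10.7% of all genes), 4 hypoxia targets and 4 glycolysis genes, although 0 members passed the limma test there and 3 had an unadjusted p under 0.05. With IGF 3 members were below (8.11%, against 14.8% of all genes) and 2 above (5.41%, against 13.0%) in all 4. With TGF beta 6 were below (16.2%, against 13.98%) and 6 above (16.2%, against 8.02%). These are counts of signs with no test of their own.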
